A study of Mus musculus with 7 samples.

Results

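Fibroblasts that had been reprogrammed towards cardiac muscle in the presence of a control small interfering RNA (siRNA) were compared with untreated mouse embryonic fibroblasts (MEFs). The 2 samples were picked by their titles, and each was measured on 1 of the 7 arrays of the series. All 19505 genes that the array annotation names entered the comparison, whatever their values. Gene expression was read with Clariom S mouse arrays (Affymetrix, 1 colour), for which normalized log2 signals of each probe set were deposited.

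The reprogrammed sample, called siCtrl here, had received retroviruses for Gata4, for Tbx5 and for a form of Mef2c, plus the control siRNA. Its labels disagree on the Mef2c form: the title names isoform 2 (GT/M2), while the source name and characteristics name isoform 2 fused to the MyoD transactivation domain (GT/M2TAD). The form is therefore left unnamed, and siCtrl was also set beside the arrays of GT/M2 and GT/M2TAD cells that had no siRNA. Per the labels, medium was replaced 24 h after infection, transduced cells were collected at 1 week, and 100 ng of RNA of integrity number above 7 was used. MEFs had neither virus nor siRNA, their harvest time was not given, and no array carried an empty virus or siRNA alone. A difference between siCtrl and MEF therefore cannot tell apart the factors, the infection, the siRNA and time in culture. Strain, embryonic age and any pooling of animals are not given in the sources used here.

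In direct cardiac reprogramming, Gata4, Mef2c and Tbx5, transcription factors of the developing heart, are placed in fibroblasts to switch on genes of cardiac muscle without a stem cell stage. Mef2c binds an A/T-rich site found before many muscle genes, Gata4 a GATA site and Tbx5 a T-box site, and p300, the product of Ep300, is an acetyltransferase that serves as a coactivator. Fibroblasts in culture divide and secrete collagen and other matrix, whereas cardiac muscle cells build sarcomeres, handle calcium in cycles, burn fatty acids and divide little.

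With 1 array in each group there was no spread between replicates, no test and no p-value, so size alone decided which genes were counted. To count as 2-fold higher or lower, a gene needed log2 signals at least 1 apart and a higher signal that reached the background limit of its array. Of the 5222 negative-control probes, 95% lie under that limit, which was 8.81 for MEF and 8.43 for siCtrl. Where the lower signal was under its limit, only a bound is known, and "at least" gives the fold down to that limit. By the 2-fold rule 1417 genes, 7.26% of those compared, were higher on siCtrl and 1381, 7.08%, were lower. With a 4-fold rule, 639 genes (3.28%) were higher and 579 (2.97%) lower. On both arrays 13357 genes (68.5%) lay below background. Of the 6148 genes above background on at least 1 array, 23.0% were 2-fold higher and 22.5% lower. For lists with many bright members these larger shares are the closer match. A gene above background on 1 array alone can be counted in 1 direction only. Of the 1036 genes above background on siCtrl alone, 705 were higher. Of the 560 above it on MEF alone, 505 were lower. The median difference over all named genes was 0.012.

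Negative-control probes show how far single values can be trusted. Of the 345 that lay above the limit on either array, 51.6% were 2-fold apart, against 45.5% of the 6148 genes that did so. Of the 179 above the limit on both arrays, 26.8% were 2-fold apart, against 34.9% of such genes. Some of these probes are bright, with maxima of 19.52 on MEF and 19.67 on siCtrl, and they were not split by signal. A single gene that is 2-fold apart therefore says little. By the bounded difference, 4 of the 345 probes (1.16%) were at least 16-fold apart, against 107 genes (1.74%), of which 51 were higher and 56 lower on siCtrl. The farthest probe had a bounded difference of 5.81, and 30 genes lay beyond it, 18 higher and 12 lower. The higher ones include Mef2c, Pdlim3, Myl4, Tnnt2 and Nppa, and the lower ones Tm4sf1, Mki67, Rrm2 and Plk1. The probes had a median difference of -0.25.

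**Figure D1:**
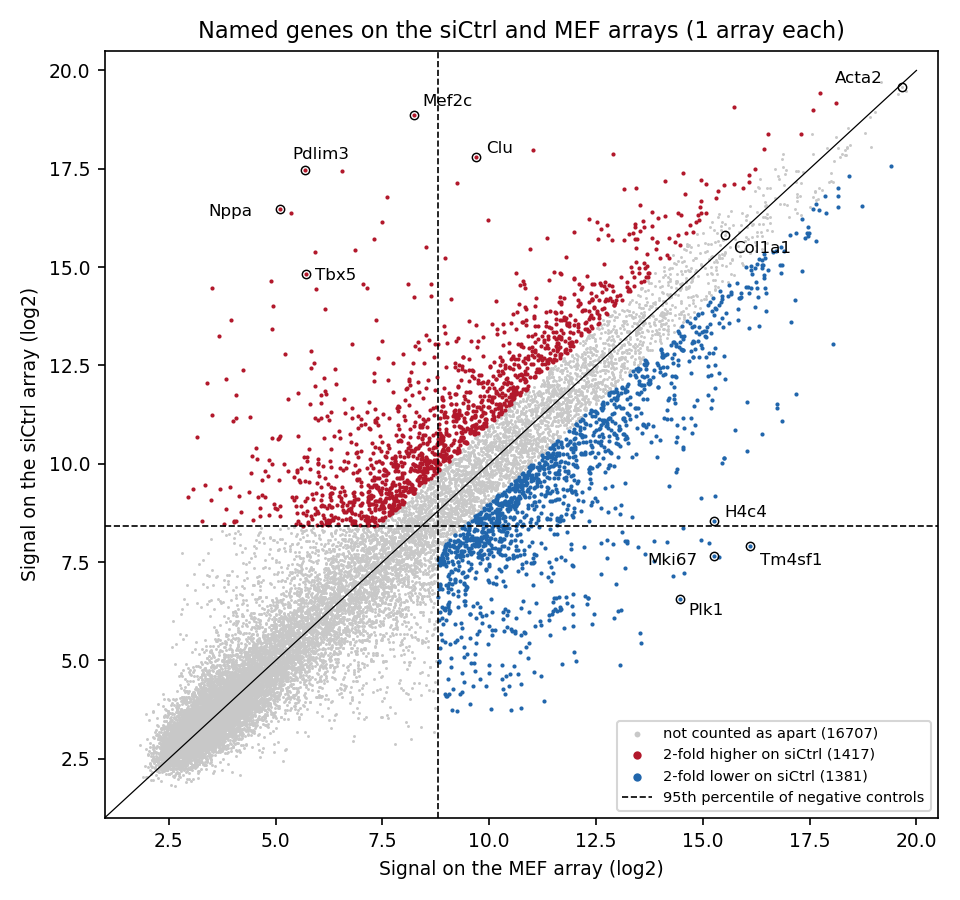
Log2 signal of each of the 19505 named genes on the MEF array (x axis) and the siCtrl array (y axis), with 1 array each and no error bars. Red points are the 1417 genes counted as higher, blue points the 1381 counted as lower, dashed lines the background limits of 8.81 and 8.43, and the solid line equal signal; Mef2c and Nppa sit far above the line and Mki67 and Plk1 far below it.

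The delivered factors were examined first. Mef2c gave a signal of 8.24 on MEF and 18.87 on siCtrl, at least 1070-fold higher. Tbx5 gave 5.72 on MEF and 14.83 on siCtrl, at least 64.9-fold higher, although the 2 arrays of GT/M2 and GT/M2TAD cells had 16.23 and 16.14. Gata4, at 4.22 and 3.57, was below background on both arrays, and so was Myod1, at 3.54 and 3.39. Ep300 had 9.87 on MEF and 9.90 on siCtrl. Where the probes lie relative to the delivered coding sequences is not known, so the low Gata4 signal checks nothing about that virus. The labelled cell of origin was also checked: the fibroblast genes Vim, Ddr2 and Thy1 were above background on both arrays, at 19.04, 14.09 and 13.49 on MEF and 18.94, 13.79 and 12.89 on siCtrl. The fibroblast markers Tcf21, Twist1 and Dpt were below background on both.

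Sarcomere genes were higher in large part. Among 40 measured genes of the thick filament, thin filament and Z-disc, 23 were 2-fold higher on siCtrl and 0 were lower, beside 7.26% and 7.08% of all named genes. Of the members above background on either array, 100%, 80% and 81.25% of the 3 lists were higher, beside 23.0% of all such genes. Most of these members were above background on siCtrl alone, where they could only count as higher. The contrast with 23.0% is therefore partly set by the filter. The medians of the 3 lists were 4.85, 2.26 and 4.07, beside 0.012 for all named genes. Because most of these genes were under the MEF limit, the medians over bounded differences are smaller, at 0.76, 0 and 1.89. Fewer cells of a type and less RNA per cell cannot be told apart in such bulk samples.

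In the thick filament and M-band, 6 of 10 genes were higher. Myl4, the light chain of atrial and embryonic myosin, had 6.55 on MEF and 17.44 on siCtrl, at least 396-fold higher. The atrial regulatory light chain Myl7 had 3.16 and 10.67, at least 3.64-fold higher. The M-band protein Myom1 had 6.17 and 11.84, at least 8.19-fold higher. All of these were under the MEF limit, as were titin (Ttn, 10.72 on siCtrl), the myosin-binding protein Mybpc3 (9.77) and the M-band protein Myom2 (9.36). The main cardiac myosins did not reach background: Myh6 had 4.75 and 5.81, Myh7 had 4.37 and 5.20, and the ventricular light chains Myl2 and Myl3 had 4.59 and 6.58 on siCtrl.

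In the thin filament, 4 of 10 genes were higher. Cardiac troponin T, Tnnt2, had 7.61 on MEF and 16.79 on siCtrl, at least 253-fold higher. Troponin C, Tnnc1, had 8.24 and 14.23, at least 42.8-fold higher. Cardiac actin, Actc1, which was above background on both arrays, had 8.97 and 13.32, a difference of 4.35 or 20.4-fold. Tmod1, which caps the pointed end of the filament, just passed the siCtrl limit at 8.71, so its bound shows no difference. The inhibitory troponins Tnni3 and Tnni1 stayed below background at 4.76 and 5.82, while tropomyosin Tpm1 was bright on both arrays at 18.90 and 18.83.

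The Z-disc and costamere, where filaments are anchored and force reaches the membrane, had 13 of 20 genes higher. Pdlim3, an actinin-binding PDZ and LIM protein, had 5.68 on MEF and 17.48 on siCtrl, at least 407-fold higher. Synpo2l, an actin-bundling partner of actinin, had 5.35 and 16.38, at least 191-fold higher. The muscle LIM protein Csrp3 had 3.50 and 14.47, at least 50.7-fold higher. A further 6 genes were below the MEF limit and above the siCtrl limit: the intermediate filament desmin (Des, at least 19.0-fold), Ldb3 (15.7-fold), Smpx (4.25 on MEF and 12.39 on siCtrl), the calcineurin-binding Myoz2 (7.63-fold), Xirp2 (4.86-fold) and Xirp1 (1.28-fold). Above background on both arrays were the small heat shock protein Cryab at 12.90 and 17.88, the stretch-responsive Ankrd1 at 13.43 and 17.00, Nexn at 11.18 and 12.68 and filamin C, Flnc, at 11.27 and 12.68. Sarcomeric actinin, Actn2, had 7.81 and 8.44, and the Z-disc genes Tcap, Myot and Mypn were below background on both arrays.

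**Figure D2:**
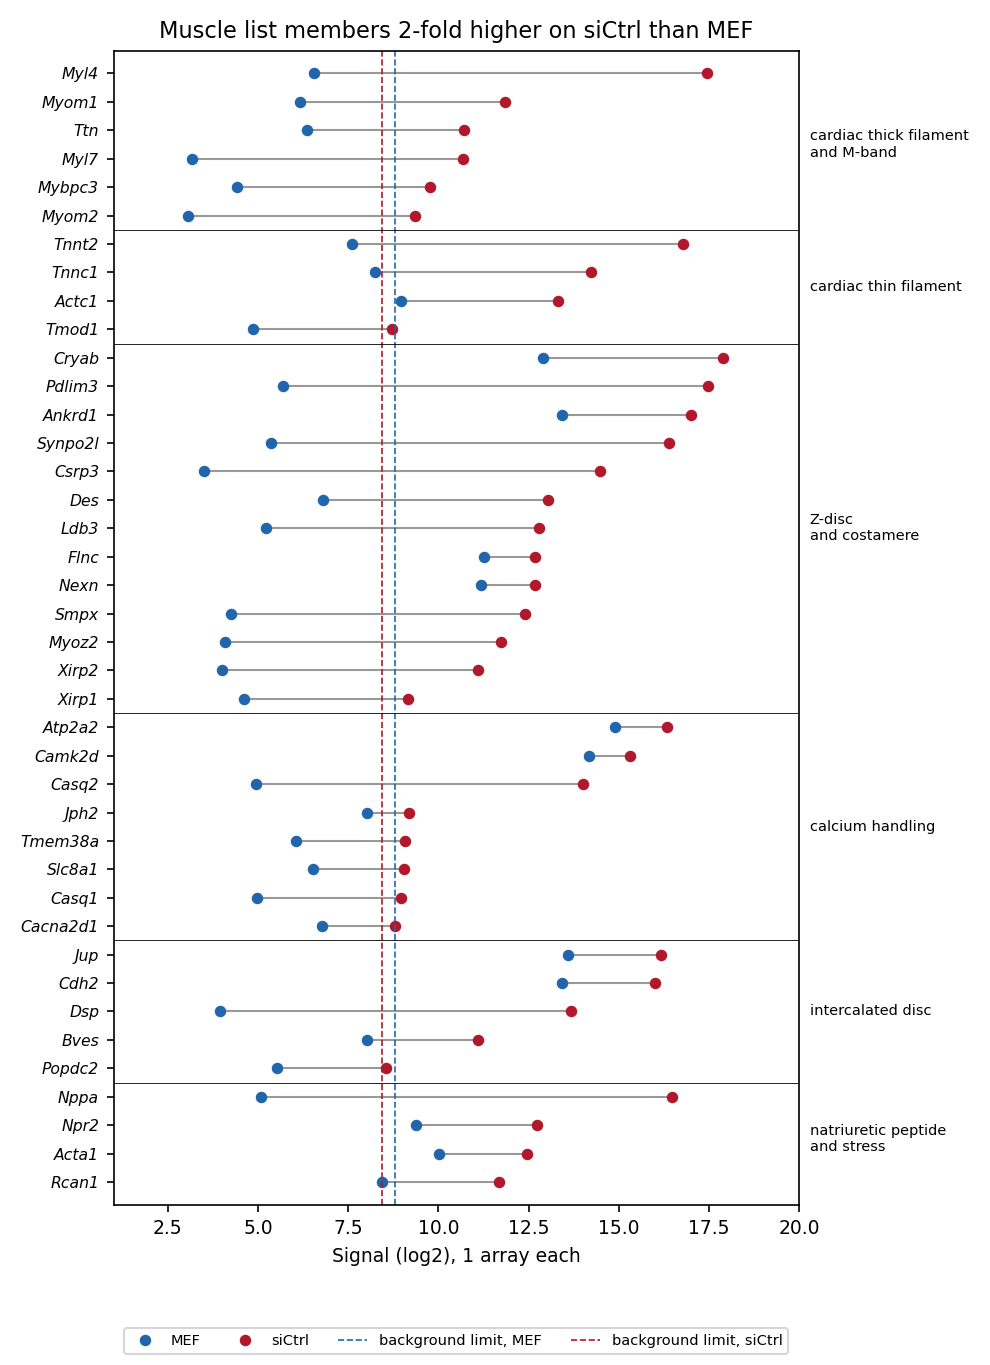
Log2 signal of the 40 members of 6 muscle gene lists that were 2-fold higher on siCtrl, with MEF in blue and siCtrl in red (1 array each, no error bars) and the background limits of 8.81 and 8.43 as dashed lines. Most MEF points lie left of the limits, and the longest lines belong to Pdlim3, Nppa and Synpo2l.

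The start-site regions of the higher sarcomere genes were searched for the sites of the delivered factors, since the data bear on genes that were higher together. RefSeq (GRCm38.p6) gave 300-base windows, 250 bases before to 50 after each start site, for 15691 of the 19505 genes. The MEF2 consensus, searched on both strands, was in the windows of 5 of 19 higher sarcomere genes (26.3%) and of 3.14% of all 15691 genes. Among genes with a window, it was in 2.54% of the 1142 counted as higher over the whole array and in 2.18% of the 1145 counted as lower. The GATA core AGATAA was in 4 of 19 sarcomere genes (21.1%) and in 11.1% of all genes, and the T-box element AGGTGT in 2 of 19 (10.5%) and 14.5%. These counts are descriptions, not bound sites. The 5 genes with the MEF2 consensus are shown with it in capitals, in 73 to 90 bases that end at or before the start site.
Synpo2l, first start site, chr14:20668414-20668503, minus strand: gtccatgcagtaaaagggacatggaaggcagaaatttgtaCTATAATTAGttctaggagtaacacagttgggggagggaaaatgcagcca
Synpo2l, second start site, chr14:20664669-20664758, minus strand: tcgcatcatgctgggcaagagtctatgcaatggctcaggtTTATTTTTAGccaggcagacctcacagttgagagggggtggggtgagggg
Xirp2, chr2:67445888-67445977, plus strand: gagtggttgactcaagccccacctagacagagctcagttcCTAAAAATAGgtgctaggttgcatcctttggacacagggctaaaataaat
Myoz2, chr3:123034988-123035060, minus strand: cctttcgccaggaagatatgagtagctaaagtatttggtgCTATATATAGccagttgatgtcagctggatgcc
Mybpc3, chr2:91118014-91118103, plus strand: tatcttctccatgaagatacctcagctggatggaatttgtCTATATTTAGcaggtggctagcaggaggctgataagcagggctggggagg
Ttn, chr2:76982664-76982753, minus strand: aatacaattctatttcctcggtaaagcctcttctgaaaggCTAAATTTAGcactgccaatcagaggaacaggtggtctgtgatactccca

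Calcium handling genes were higher in part. Of 21 measured genes, 8 were higher and 0 lower, with a median of 1.17 and a bounded median of 0. Over all named genes 7.26% were higher and 7.08% lower. Calsequestrin 2, Casq2, which stores calcium in the sarcoplasmic reticulum, had 4.94 on MEF and 14.01 on siCtrl, at least 36.9-fold higher. The calcium pump Atp2a2, bright on both arrays, had 14.89 and 16.33, a difference of 1.44, and the kinase Camk2d had 14.17 and 15.31. The other higher genes were Casq1, the sodium-calcium exchanger Slc8a1, Tmem38a, Jph2 and Cacna2d1, all with bounds of at most 1.30-fold. The release channel Ryr2 had 3.12 and 6.79 and phospholamban, Pln, 2.40 and 3.76, below background on both arrays. Of 18 measured potassium, pacemaker and connexin genes, 0 were higher and 16 were below background on both arrays, Hcn4, Kcnj2 and Gja5 among them. The gap junction gene Gja1 had 13.65 and 13.58, and Gjc1 was lower at 10.31 on MEF and 7.02 on siCtrl.

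Junctions between cardiac muscle cells showed 5 of 12 genes higher and 0 lower, beside 7.26% and 7.08% of all named genes. The desmosomal Dsp had 3.95 on MEF and 13.67 on siCtrl, at least 29.0-fold higher. N-cadherin, Cdh2, had 13.42 and 16.01, a difference of 2.59, and plakoglobin, Jup, had 13.60 and 16.17, a difference of 2.57. Bves was at least 4.90-fold higher, and Popdc2 only reached the limit at 8.54. The desmosomal partners Pkp2, Dsg2 and Dsc2 were below background on both arrays, at 8.16, 4.24 and 5.09 on siCtrl.

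Among natriuretic peptide and stress genes, 4 of 12 were higher and 1 was lower, beside 7.26% and 7.08% of all named genes. Nppa, which encodes atrial natriuretic peptide, had 5.09 on MEF and 16.47 on siCtrl, at least 202-fold higher, while Nppb had 3.39 and 7.19, below background on both. The receptor Npr2 had 9.38 and 12.72, the calcineurin inhibitor Rcan1 was at least 7.30-fold higher, and skeletal alpha-actin, Acta1, had 10.02 and 12.46. The vasodilator peptide gene Adm was the lower one, at 11.73 and 8.58.

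Cardiac transcription factors other than those delivered were not higher as a group. Of 29 measured genes, 5 were lower and 3 were higher, namely Tbx5, Mef2c and Mef2d, the last with 11.78 on MEF and 12.85 on siCtrl. Of the 9 above background on either array, 33.3% were higher and 55.6% lower, beside 23.0% and 22.5% of all such genes. The 5 lower genes were Srf, a regulator of actin genes, at 11.31 and 9.21, Foxp1 at 14.89 and 13.11, Meis1 at 9.97 and 8.31, Irx3 at 10.71 and 9.59, and Meis2 at 12.25 and 11.25. The heart factors Nkx2-5, Tbx20, Hand2, Gata6, Isl1 and Myocd were below background on both arrays, at 3.72, 4.17, 4.61, 5.02, 3.48 and 5.22 on siCtrl. Meis2 lay at the edge of the rule and no longer counted as lower after quantile normalization or level-dependent centring; Mef2d did not after median centring or with siEp300 in place of siCtrl.

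Genes of skeletal muscle were mostly below background. Of 33 measured genes, 3 were higher, 1 was lower and 29 were below background on both arrays, including Myog, Myf5, Myf6 and the fusion gene Mymk. The shares over all named genes were 7.26% higher and 7.08% lower. Myl1, a fast-fibre light chain also made in embryonic muscle, had 6.85 on MEF and 15.43 on siCtrl, at least 98.7-fold higher. Fast troponin T, Tnnt3, had 6.32 and 9.26, at least 1.37-fold higher, and Chrnb1 only reached the limit. The myogenic factor Pax3 was the lower one, at 8.93 on MEF and 7.81 on siCtrl.

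**Figure D3:**
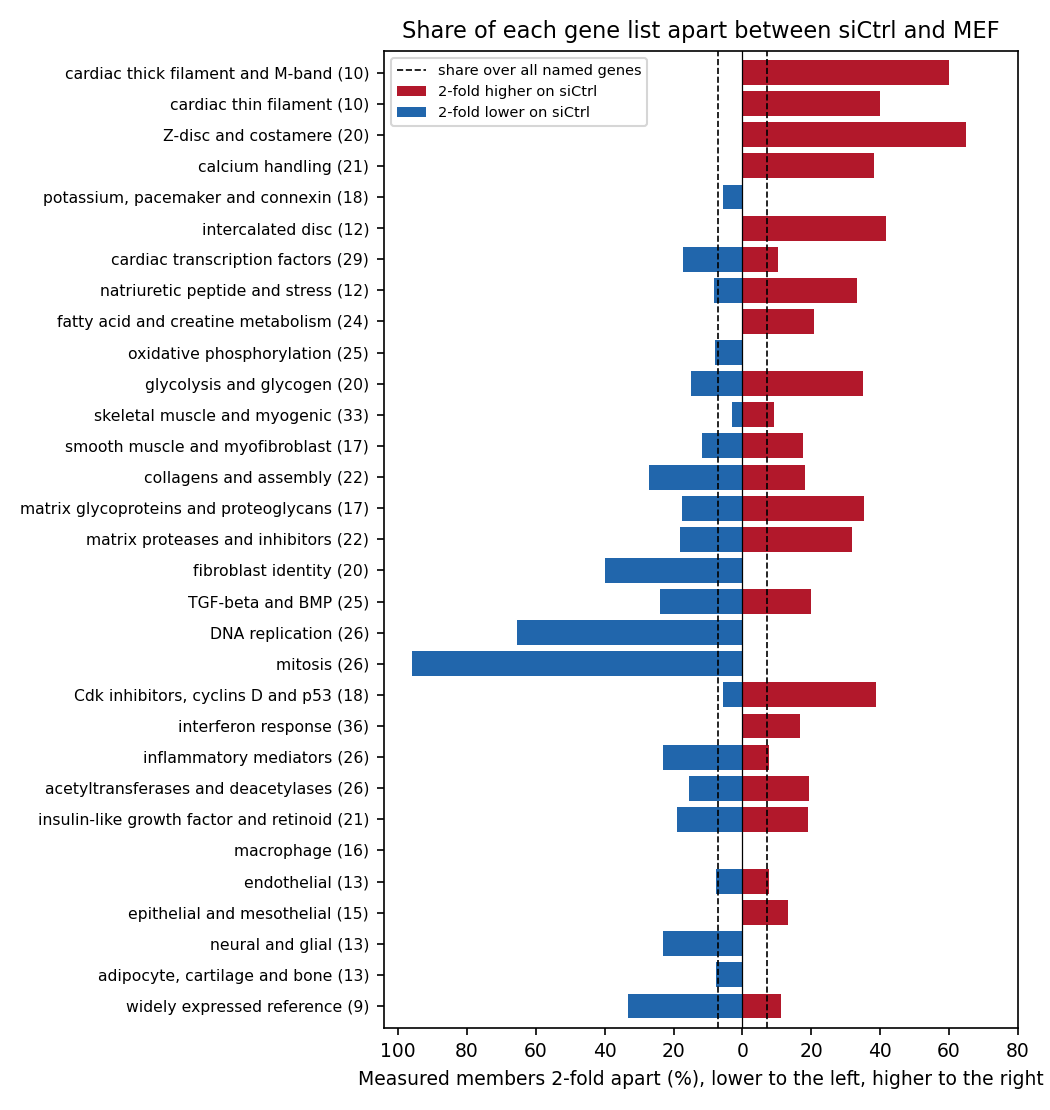
Percentage of the measured members of each gene list (number in brackets) that were 2-fold higher (red, to the right) or 2-fold lower (blue, to the left) on siCtrl than on MEF, from 1 array each. Dashed lines mark 7.26% and 7.08%, the shares over all named genes; the mitosis list reaches farthest to the left, with 25 of 26 members, and the Z-disc list farthest to the right, with 13 of 20.

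Fuel genes of the heart were higher in part. In fatty acid and creatine metabolism, 5 of 24 genes were higher and 0 lower, beside 7.26% and 7.08% of all named genes. Fabp3, which carries fatty acids in cardiac muscle cells, was below background on MEF and had 16.15 on siCtrl, at least 162-fold higher. The dehydrogenase Acadl, which acts on long-chain fatty acids, had 10.06 and 13.57, a difference of 3.50, and Acadvl had 8.91 and 10.36. The kinase Pdk4, which restrains pyruvate oxidation, was at least 4.98-fold higher, and the fatty acid transporter Slc27a1 at least 3.20-fold. Myoglobin (Mb), Ckm, Cd36 and Ppargc1a were below background on both arrays.

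Oxidative phosphorylation genes did not share this direction. Of 25 measured genes, 0 were higher, 2 were lower and 19 others were above background without a 2-fold difference. The lower genes are 9.52% of the 21 above background, beside 22.5% of all such genes. The median was -0.53. Cytochrome c, Cycs, had 15.44 on MEF and 14.20 on siCtrl, and the complex III subunit Uqcrfs1 had 11.52 and 10.36. ATP synthase subunits lay just inside the rule, Atp5b at 17.30 and 16.32 and Atp5o at 12.81 and 11.93. With the siEp300 array in place of siCtrl, 2 of these genes were higher and 1 lower, and the median was -0.16.

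Glycolysis and glycogen genes differed in both directions, with 7 of 20 higher and 3 lower. Of the 17 above background these are 41.2% and 17.6%, beside 23.0% and 22.5% of all such genes. The muscle enolase Eno3 had 6.39 on MEF and 12.41 on siCtrl, at least 12.1-fold higher. Ppp1r3c, which targets a phosphatase to glycogen, had 3.40 and 12.07, at least 9.57-fold higher. The phosphofructokinases Pfkp and Pfkm were 4.75-fold and at least 2.08-fold higher, and hexokinase Hk2 2.56-fold. Lower were the glucose transporter Slc2a1 at 15.38 and 13.59, lactate dehydrogenase Ldha at 16.43 and 14.79 and Pgk1 at 14.91 and 13.30. Gapdh had 18.25 and 17.87.

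Most cell division genes were lower. Of 26 measured mitosis genes, 25 were lower on siCtrl and 0 were higher, with a median of -5.46 and a bounded median of -2.64. Of 26 DNA replication genes, 17 were lower, 0 were higher and the other 9 were below background on both arrays; the medians were -3.73 and -1.45. Over all named genes 7.08% were lower. Of the mitosis and replication genes above background on either array, 100% were lower, beside 22.5% of all such genes. Only 4 of them were also above the siCtrl limit, and the rest could only count as lower. This contrast too is therefore partly set by the filter.

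The proliferation marker Mki67 had 15.26 on MEF and 7.65 on siCtrl, at least 114-fold lower. The mitotic kinase Plk1 had 14.48 and 6.57, at least 66.3-fold lower, and cyclin A2, Ccna2, had 13.55 and 5.45, at least 34.7-fold lower. Kif23 and Kif20a, motors of cell cleavage, were at least 25.6-fold and 25.2-fold lower, and Ube2c, which marks mitotic proteins for destruction, at least 24.7-fold. Of the 25 lower mitosis genes, 1 was above background on siCtrl: the centromere histone Cenpa, at 11.44 and 10.07. Cenpf, at 7.49 and 3.56, was the one member below background on both arrays.

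In DNA replication, the ribonucleotide reductase subunit Rrm2 had 14.56 on MEF and 7.22 on siCtrl, at least 70.3-fold lower. Its partner subunit Rrm1 stayed above background on both arrays at 14.75 and 10.79, a difference of -3.96. The sliding clamp Pcna had 15.37 and 12.31, a difference of -3.06, and the helicase subunit Mcm6 had 12.78 and 8.78. Mcm4, Prim1, Mcm2, Mcm5 and Cdt1 were below the siCtrl limit, with bounds of at least 11.7-, 8.41-, 8.13-, 6.88- and 5.71-fold.

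Histone genes, most of them of the replication-linked kind that S-phase cells use to package new DNA, were low with them. This group was chosen after its values were seen, from RefSeq symbols of H1, H2A, H2B, H3 and H4 genes. The H1 symbols were not limited to replication-linked genes. Of 57 genes, 45 were lower on siCtrl, 0 were higher and the median was -4.91, while 7.08% of all named genes were lower. H4c4 had 15.25 on MEF and 8.54 on siCtrl, a difference of -6.71, and H2ac10 had 15.29 and 9.18, a difference of -6.11. All 11 H4 genes were lower, as were 9 of 10 H3, 12 of 15 H2B, 10 of 13 H2A and 3 of 8 H1 genes. H2bc4 went the other way within the rule, at 13.11 and 13.91. Many of these genes are near-identical copies, H3c14 and H3c15 share both values to the last digit, and probes may read several of them. They are therefore not independent.

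**Figure D4:**
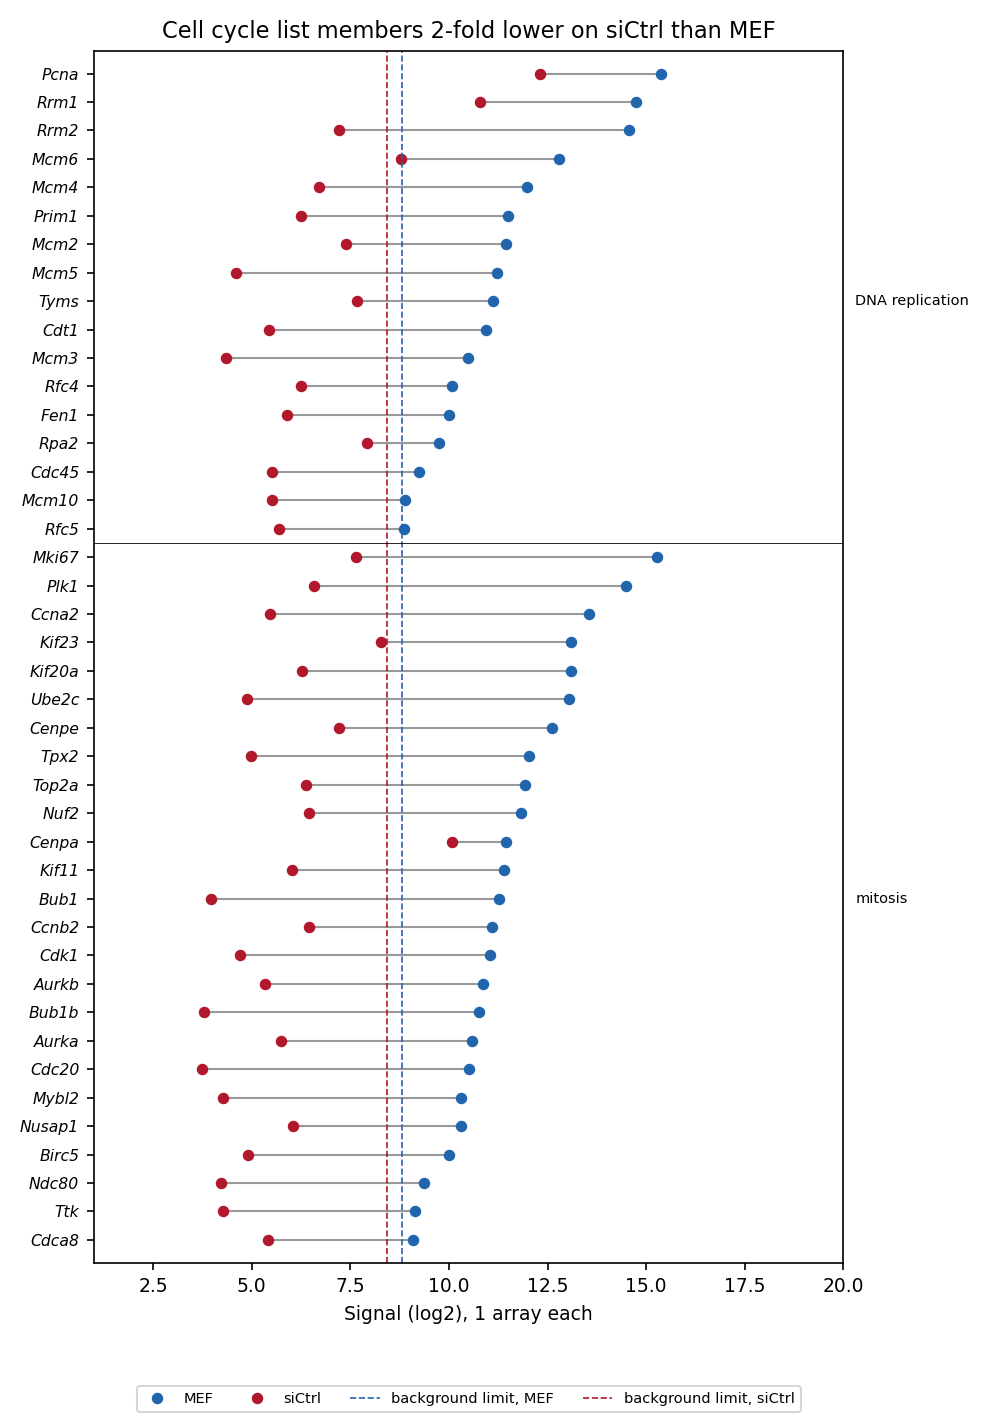
Log2 signal of the 42 DNA replication and mitosis genes that were 2-fold lower on siCtrl, with MEF in blue and siCtrl in red (1 array each, no error bars) and the background limits of 8.81 and 8.43 as dashed lines. All MEF points lie right of the limits, and 4 siCtrl points, Pcna, Rrm1, Mcm6 and Cenpa, lie right of the siCtrl limit.

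Promoters of these genes were searched in the same windows. The CHR element TTTGAA, through which cell cycle complexes hold mitotic genes silent outside division, was in 18 of 37 lower cell cycle genes with a window (48.6%) and in 17.8% of all genes. Over the whole array, TTTGAA was in 19.6% of genes counted as lower, near the share of all genes, and in 11.9% of those counted as higher. The E2F core GCGGGA was in 20 of 37 (54.1%) and in 29.5% of all genes, but also in 40.5% of genes counted as higher on siCtrl over the whole array, against 46.1% of those counted as lower. Both were sought on both strands, and a match is not a bound site. Mki67, Ccnb2 and Cdc20 are shown with TTTGAA in capitals; the bases end before the start site.
Mki67, chr7:135716432-135716535, minus strand: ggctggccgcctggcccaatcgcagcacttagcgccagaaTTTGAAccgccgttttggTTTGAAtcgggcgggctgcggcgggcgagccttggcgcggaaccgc
Ccnb2, chr9:70421676-70421761, minus strand: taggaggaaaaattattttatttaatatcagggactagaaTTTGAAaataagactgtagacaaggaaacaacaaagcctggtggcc
Cdc20, chr4:118437344-118437401, minus strand: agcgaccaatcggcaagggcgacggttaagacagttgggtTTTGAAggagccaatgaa

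Inhibitors of the cell cycle and p53 targets had 7 of 18 genes higher and 1 lower, which is 58.3% and 8.33% of the 12 above background. Cdkn1a, which encodes p21, had 16.53 on MEF and 18.39 on siCtrl, a difference of 1.85 or 3.62-fold. Cdkn2b, which encodes p15, had 6.30 and 11.33, at least 5.73-fold higher, and its neighbour Cdkn2a had 2.96 and 9.15, at least 1.26-fold. The p53 targets Trp53inp1 at 9.70 and 12.96, Btg2 at 11.06 and 14.02, Ccng1 at 17.30 and 18.38 and Fas at 6.27 and 9.15 were higher as well. Phlda3 was the lower one, at 9.10 and 7.76.

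Fibroblast identity genes were lower in part. Of 20 measured genes, 8 were lower, 0 were higher and 8 were below background on both arrays, with a median of -0.88 and a bounded median of -0.20. The lower genes are 66.7% of the 12 above background. Dlk1, an imprinted gene of immature mesenchyme, had 13.54 on MEF and 5.71 on siCtrl, at least 34.6-fold lower. Osr1, a factor of embryonic connective tissue, had 14.55 and 10.37, a difference of -4.17, and Crabp1, which binds retinoic acid, was at least 14.9-fold lower. Snai2 had 14.54 and 11.16, S100a4 12.52 and 9.95, Prrx2 11.96 and 9.72, Prrx1 16.32 and 15.22 and Pdgfrb 13.62 and 12.52. The last 2 were near the rule: Prrx1 did not count after level-dependent centring, and Pdgfrb did not with siEp300.

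Genes of collagen chains and collagen assembly differed in both directions, 4 of 22 higher and 6 lower. Of the 17 above background on either array these are 23.5% and 35.3%, the first near the share of all such genes. The fibrillar chains of type I were close on both arrays, Col1a1 at 15.51 on MEF and 15.83 on siCtrl and Col1a2 at 15.20 and 15.26. All 3 type VI chains measured were lower: Col6a3 had 13.23 and 8.04, at least 28.0-fold, Col6a1 was at least 5.25-fold and Col6a2 6.55-fold lower. The type V and XI chains Col5a2, at 11.86 and 13.20, and Col11a1, at least 2.75-fold, were higher. Among enzymes, the hydroxylases Plod2 at 11.53 and 14.89 and P4ha1 at 12.69 and 14.52 were higher, while P4ha3 at 13.08 and 8.95, Loxl1 at 13.51 and 12.02 and the collagen chaperone Serpinh1 at 15.80 and 14.59 were lower. The crosslinking enzyme Lox had 18.39 and 18.53.

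Of 17 matrix glycoprotein and proteoglycan genes, 6 were higher and 3 lower, which is 46.2% and 23.1% of the 13 above background. Periostin, Postn, a matrix protein of activated fibroblasts, had 11.80 on MEF and 15.25 on siCtrl, a difference of 3.46. The leucine-rich proteoglycan Ogn had 12.53 and 16.14, a 12.2-fold difference. Thbs2 at 12.11 and 14.58, Aspn at 11.68 and 13.23, Sparc at 18.11 and 19.18 and Dcn, at least 2.48-fold, were the others. Lower were versican, Vcan, at 14.39 and 10.98, elastin, Eln, at 9.75 and 7.92 and Bgn at 18.17 and 17.02. Sparc and Bgn were near the rule, and each missed it under at least 1 other scaling.

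Of 22 matrix protease and inhibitor genes, 7 were higher and 4 lower, which is 46.7% and 26.7% of the 15 above background. Bmp1, which trims procollagen, had 11.04 on MEF and 13.77 on siCtrl, while the related Tll1 had 13.85 and 8.03, at least 43.0-fold lower. Adam12 was at least 22.1-fold lower and the urokinase Plau at least 8.98-fold. The inhibitors went separate ways: Timp3 was higher at 13.43 and 15.49 and Timp2 at 14.96 and 16.37, and Timp1 was lower at 15.83 and 13.92. Adamts1 and Adamts12 were 3.68-fold and 3.29-fold higher.

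Smooth muscle and myofibroblast genes mostly stayed bright. Of 17 measured genes, 3 were higher, 2 were lower and 9 others were above background without a 2-fold difference. The higher and lower genes are 21.4% and 14.3% of the 14 above background, near or under the shares of all such genes. Acta2, the actin of smooth muscle and myofibroblasts, had 19.66 on MEF and 19.58 on siCtrl, Tagln had 17.28 and 16.81 and Cnn1 15.63 and 15.10. Smooth muscle myosin, Myh11, was higher at 9.80 and 12.26, the light chain Myl9 at 15.08 and 16.39, and the light chain kinase Mylk at 4.92 and 10.65. Actg2, at 16.86 and 15.05, and Smtn, at least 3.93-fold, were lower.

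Signals of the TGF-beta and BMP families, which drive matrix production and mesenchymal fate, had 5 of 25 genes higher and 6 lower, or 27.8% and 33.3% of the 18 above background. The higher ones were on the TGF-beta side: the ligands Tgfb2 at 11.99 on MEF and 15.88 on siCtrl and Tgfb3 at 13.91 and 15.46, the receptor Tgfbr2 at 9.49 and 11.30, and the latency proteins Ltbp1 at 12.68 and 15.09 and Ltbp3, at least 3.77-fold. Targets Ccn1 and Ccn2 were close, at 18.80 and 18.40 and at 18.07 and 17.69. The lower ones included Bmp4 at 11.15 and 8.65 and the BMP targets Id1 at 11.67 and 6.36, Id2 at 12.23 and 6.63 and Id3 at 11.66 and 6.28, which were at least 9.44-, 14.0- and 9.37-fold lower. Inhba, at 16.48 and 13.89, and Ltbp2, at 10.25 and 8.85, made up the rest.

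Growth factor and retinoid genes differed in both directions, 4 of 21 higher and 4 lower. Each is 33.3% of the 12 above background, not far from the 23.0% and 22.5% of all such genes. Igf1 had 9.68 on MEF and 13.52 on siCtrl, a 14.3-fold difference, while the embryonic form Igf2 had 19.40 and 17.57. Igfbp5 was at least 2.84-fold higher and Igfbp4 8.52-fold lower. The retinal reductase Dhrs3 was at least 3.61-fold higher, and the receptors Rara, at 10.85 and 9.54, and Rarg, at 10.22 and 8.51, were lower.

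Interferon response genes were mostly below background, with 6 of 36 higher and 0 lower. The higher genes are 85.7% of the 7 above background. Ifi27 had 6.07 on MEF and 11.17 on siCtrl, at least 5.14-fold higher, Irgm1 had 9.36 and 12.49, and the RNA sensor kinase Eif2ak2 had 9.30 and 11.31. Tap1, Usp18 and Stat2 were the others. Isg15, Ifit1 and Mx1 stayed below background on both arrays, at 5.38, 4.54 and 4.10 on siCtrl. Both virus and siRNA were present on siCtrl alone, and their part in these values was not tested.

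Of 26 inflammatory mediators, 2 were higher and 6 lower, which is 22.2% and 66.7% of the 9 above background. The acute-phase inhibitor Serpina3n had 3.68 on MEF and 13.24 on siCtrl, at least 21.5-fold higher, and the cytokine Lif had 9.38 and 10.90. The chemokine Ccl2 had 11.96 and 6.17, at least 11.5-fold lower, and cyclooxygenase-2, Ptgs2, had 15.29 and 11.92. Csf1, at 17.33 and 14.91, Vcam1, at 11.22 and 9.24, Nfkbia, at 10.28 and 8.42, and Tnfaip3, at 9.20 and 7.05, were lower as well.

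Acetyltransferase and deacetylase genes, the class to which the siRNA target of the series belongs, had 5 of 26 higher and 4 lower. Of the 16 above background these are 31.3% and 25.0%, not far from the shares of all such genes. Hdac6, which acts on tubulin, had 7.45 on MEF and 10.70 on siCtrl, at least 3.71-fold higher, and Hdac9 was at least 2.42-fold higher. Kat2a at 10.01 and 8.31, Hdac2 at 13.23 and 11.86, Kat7 at 11.36 and 10.29 and Hdac7 at 9.41 and 8.11 were lower. Crebbp, the relative of Ep300, had 13.30 and 13.18.

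Markers of other cell types were checked for the whole of each list. The shares over all named genes were 7.26% higher and 7.08% lower. All 16 macrophage genes measured were below background on both arrays, their signals between 3.30 and 6.57 on MEF and between 3.12 and 7.09 on siCtrl. Of 13 endothelial genes, 10 were below background on both, Pecam1, Cdh5 and Tie1 among them, while Flt1 was higher at 13.28 and 14.44 and Kdr lower at 8.96 and 4.14. Of 13 neural and glial genes, 3 were lower: Stmn2 at 11.75 and 5.82, Tubb3 at 9.75 and 7.70 and Map2 at 9.28 and 7.93, and the other 10 were below background. Of 15 epithelial and mesothelial genes, 13 were below background on both arrays, and Krt18 and Msln reached the siCtrl limit only by 0.14 and 0.12. Of 13 adipocyte, cartilage and bone genes, Sox9 was lower at 10.72 and 7.68 and the other 12 were below background. Among 9 widely expressed genes, Actb, Eef1a1, Ppia, Hprt and Ywhaz were within 2-fold, Tfrc, Tbp and Rplp0 were lower, with differences of -3.44, -1.45 and -1.34, and Gusb was higher by 1.13.

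Single genes outside these lists stood as far apart. Among genes above background on both arrays, the chaperone clusterin, Clu, had 9.69 on MEF and 17.80 on siCtrl, a difference of 8.10 or 275-fold. Parm1, a membrane mucin-like protein, had 9.26 and 17.13, and the junctional adhesion protein Jam2 had 11.02 and 17.97. The calcineurin inhibitor Rcan2 was higher by 6.27, the basement membrane protein Nid2 by 6.21, the sorting receptor Sort1 by 5.07, Tspan12 by 4.56, the Z-disc and adhesion protein Sorbs2 by 4.52 and the stress regulator Nupr1 by 4.40. From below the MEF limit, the small heat shock protein Hspb7 reached 15.72 and Mustn1, a small nuclear protein of muscle and skeleton, 15.51. On the lower side, Tm4sf1, a membrane protein of spreading cells, had 16.10 and 7.91, at least 204-fold lower, and the RNA-binding protein Zfp36l2 had 14.96 and 9.12.

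The siCtrl array was next set directly beside the GT/M2 and GT/M2TAD arrays, since its labels name both. Against GT/M2, 693 genes (3.55%) were higher on siCtrl and 1237 (6.34%) were lower. Against GT/M2TAD, 349 genes (1.79%) were higher and 599 (3.07%) were lower. Median differences over all named genes were -0.12 and -0.14. Each of these comparisons is again 1 array against 1. By the labels, one of them differs by the control siRNA alone and the other by the Mef2c form too, and which is which is not settled. Whether the arrays with and without siRNA were prepared together is not stated. Which Mef2c form siCtrl carried was not read from these values.

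Many matrix and smooth muscle genes were higher on siCtrl than on both. Against GT/M2, 14 of 22 genes of collagen chains and assembly, 8 of 17 glycoprotein genes and 12 of 17 smooth muscle genes were higher. Their medians were 1.91, 1.93 and 2.42. Against GT/M2TAD, the counts were 10, 8 and 7, with medians of 1.55, 2.09 and 1.02. Over all named genes, 3.55% were higher than on GT/M2 and 1.79% higher than on GT/M2TAD. The shares among genes above background, a closer match for such bright lists, are not given here. Col1a2 had 15.20 on MEF, 15.26 on siCtrl, 11.36 on GT/M2TAD and 10.50 on GT/M2. Lox had 18.39, 18.53, 14.98 and 13.90 on the same arrays, and Cnn1 15.63, 15.10, 11.38 and 9.39. For these 3 genes the siCtrl signal lay within 1 log2 unit of MEF and more than 3 above both others. Postn, at 15.25 on siCtrl against 10.17 and 8.32, and Aspn, at 13.23 against 4.98 and 5.42, were above MEF too. The siEp300 array, labelled like siCtrl but with siRNA against Ep300, had 15.10 for Col1a2, 17.95 for Lox, 14.94 for Cnn1, 15.25 for Postn and 13.48 for Aspn.

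Muscle genes differed in both directions. Higher on siCtrl than on both were Myom1, at 11.84 against 8.96 on GT/M2TAD and 6.63 on GT/M2, Xirp2, at 11.09 against 9.17 and 5.50, Synpo2l, at 16.38 against 15.12 and 12.70, and Myl1, at 15.43 against 12.56 and 10.13. Acta1, Xirp1, Casq1, Cacna1c and Tnnt3 were higher than both as well. Casq1 had 8.97 on siCtrl, under the GT/M2TAD limit of 9.04, and Xirp1 and Tnnt3, at 9.16 and 9.26, lay just above that limit. On GT/M2TAD these 3 genes were below background, so their bounds show little or no difference from it. Lower than both were Myl7, at 10.67 against 13.16 and 15.50, Csrp3, at 14.47 against 16.46 and 16.76, Ryr2, at 6.79 against 9.89 and 10.36, Dsp, at 13.67 against 15.70 and 15.42, and Mybpc3, at 9.77 against 11.36 and 10.80. Tnnt2 lay close on all 3 arrays, at 16.79 on siCtrl, 17.67 on GT/M2TAD and 16.83 on GT/M2. Tbx5, one of the delivered factors, was lower on siCtrl, with differences of -1.31 from GT/M2TAD and -1.40 from GT/M2.

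The largest single differences, among genes above background on both arrays compared, named further genes. Against GT/M2 the highest were Cnn1, Adamts12, Myl1, the matrix protein Fbln2 and the activin subunit Inhba. Cnn1, Adamts12, Myl1 and Inhba were higher on siCtrl by 5.70, 5.57, 5.30 and 4.89, and Fbln2 had 14.56 on siCtrl and 9.57 on GT/M2. The lowest were Myl7 at -4.83, the brain-type fatty acid binding protein Fabp7 at -4.62, the lipid carrier Apoe at -4.61, the actin regulator Cap2 at -4.58 and the beta-oxidation thiolase Acaa2 at -4.57. Against GT/M2TAD the highest were Ogn, Postn, Fbln2, Tnc and the collagen receptor Mrc2, by 5.51, 5.09, 4.56, 4.30 and 3.96. The lowest were Ppp1r3c at -4.39, Cap2 at -3.81, Slc66a2 at -3.58, the GABA receptor subunit Gabrb2 at -3.44 and Fabp7 at -3.38. Cap2 had 9.67 on MEF and 9.92 on siCtrl, so its siCtrl signal was near that of MEF, whereas Fabp7, with 13.05 on MEF and 8.72 on siCtrl, was lower than on MEF and on both transduced arrays.

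Metabolic genes were lower in part. Of 25 oxidative phosphorylation genes, 0 were higher and 15 were lower than on GT/M2, with a median of -1.29. Against GT/M2TAD, 0 were higher and 3 lower, with a median of -0.67. Over all named genes, 6.34% were lower than on GT/M2 and 3.07% lower than on GT/M2TAD. The shares among genes above background are not given here. Sdha had 9.10 on siCtrl, 10.40 on GT/M2TAD and 11.36 on GT/M2. Ppp1r3c, at 12.07 against 16.46 and 15.68, and Pdk4, at 11.12 against 14.29 and 13.07, were among the larger differences, and Ldhb, Lpl and Acadm were lower than on both. Higher than on both were the lactate transporter Slc16a3, at 9.31 against 6.42 and 5.18, and Slc2a1, at 13.59 against 12.49 and 12.43. Slc16a3 lay just above the GT/M2TAD limit of 9.04, so its bound shows little difference from that array.

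Cell division genes were lower on siCtrl than on GT/M2 in 11 of 26 cases for mitosis and 7 of 26 for DNA replication, with medians of -2.79 and -1.77. Over all named genes, 6.34% were lower than on GT/M2 and 3.07% lower than on GT/M2TAD. Against GT/M2TAD, 2 mitosis genes were lower, Kif23 and Cenpa, and 0 replication genes were; most siCtrl signals were below background, so smaller amounts cannot be compared. Mki67 had 15.26 on MEF, 7.65 on siCtrl, 8.97 on GT/M2TAD and 11.77 on GT/M2. The BMP targets Id2, at 6.63 against 9.15 and 10.06, and Id3, at 6.28 against 9.61 and 9.93, were lower than on both.

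**Figure D5:**
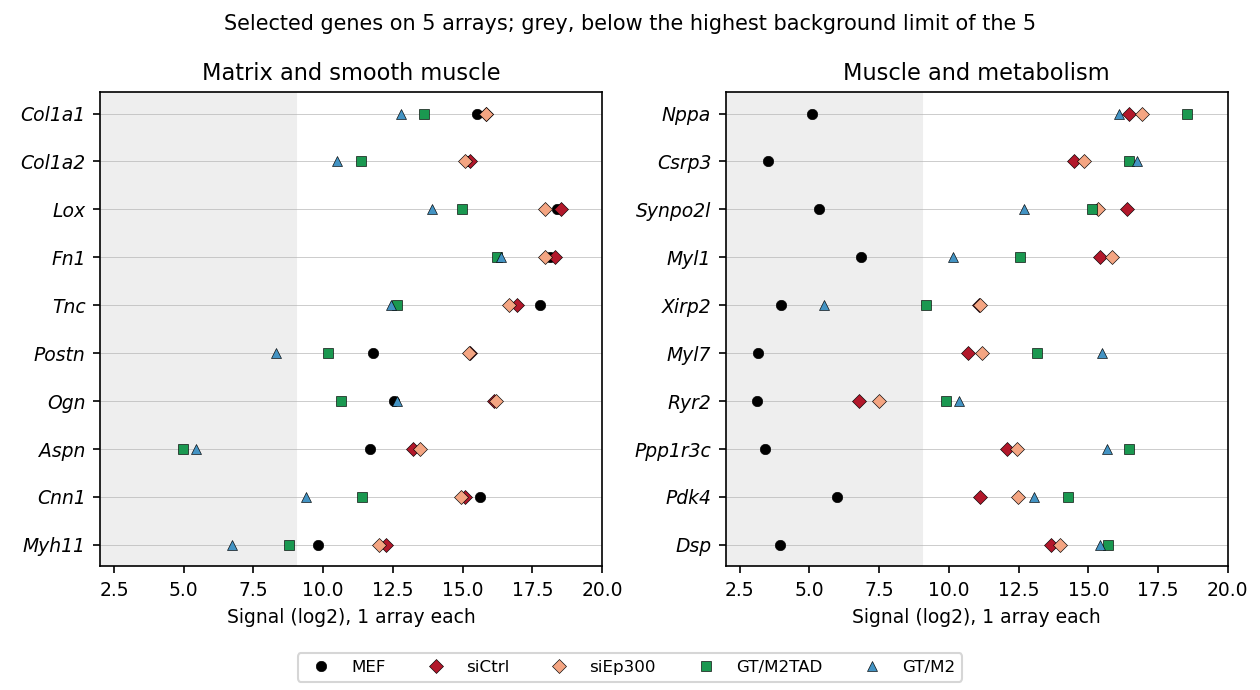
Log2 signals of 20 selected genes on the MEF, siCtrl, siEp300, GT/M2TAD and GT/M2 arrays (1 array each, no error bars), with signals under the highest of the 5 background limits, 9.04, on grey. On the left, the siCtrl and siEp300 diamonds lie right of GT/M2TAD and GT/M2 for each gene; on the right, they lie right of them for Synpo2l, Myl1 and Xirp2 and left for Myl7, Ryr2, Ppp1r3c, Pdk4, Dsp and Csrp3.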

How the data were processed

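The 7 samples were each hybridised to 1 Clariom S mouse array. The deposited values are log2 signals per probe set, which the authors normalized with SST-RMA, per the series' design text, in Affymetrix Expression Console 1.4, per the submitters' processing notes. Neither its settings nor a genome build is given in the sources used here. A shift common to most genes would be removed by such normalization, and signals near background understate differences.

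Of 28846 probe sets, 19572 carried 1 symbol in GEO's platform annotation and 0 several, and all 19572 matched RefSeq (GRCm38.p6) by Entrez identifier. They covered 19505 genes; where a gene had several sets (55 genes), the one of highest mean signal stood for it. The 9274 sets without a symbol included 5222 negative and 1324 positive controls.

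Differences, list counts and motif shares were computed in Python 3.11.15 with pandas 2.3.3. An earlier treatment of these data used each array's median as its floor; many negative controls pass that, so their 95th percentile was used, with the median as an alternative. Precision is limited by 1 array per group: no fold here has a replicate check. Named genes were the 10 highest and 10 lowest differences among genes above background on both arrays, the 10 brightest higher genes below the MEF limit and the 10 brightest lower genes below the siCtrl limit (predicted genes left out), the delivered factors, Myod1 and Ep300, list members, and, against GT/M2 and GT/M2TAD, the 5 highest and 5 lowest and list members apart from both. The 31 lists hold 660 genes, of which 45 were not analysed here. Members and lists were chosen with earlier results of these data known. Alternatives were another floor, signals raised to the limit, a 4-fold rule, quantile normalization, median and level-dependent centring, the mean over probe sets, and siEp300 in place of siCtrl.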

Additional observations from a re-analysis of the deposited data

Results flagged for a closer look

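Among the list members named, 4 genes were 2-fold higher on siCtrl than on MEF while each of the 4 arrays of transduced cells without siRNA was 2-fold lower than MEF by the same rule. Of all list members higher on siCtrl, 10 lay below MEF on those 4 arrays by any amount. The matching share over all named genes is not given here, and the lists were chosen with earlier results known. Both counts therefore describe single genes and say nothing about the lists. Postn was higher on siCtrl by 3.46, and the arrays without siRNA had 8.32 to 10.17 against 11.80 on MEF. Myh11 was higher by 2.46, with 6.59 to 8.79 on those arrays against 9.80. Adamts12 was higher by 1.72, with 8.88 to 10.81 against 12.73. Aspn was higher by 1.54, with 4.98 to 7.34 against 11.68. The pattern was not particular to siCtrl. The siEp300 array also lay above MEF for Postn at 15.25, Myh11 at 12.01, Adamts12 at 13.91 and Aspn at 13.48. These differences in direction were not tested, and all of them rest on the same MEF array.

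Of 2634 transcript probe sets without a gene name, which entered no comparison above, 100 were 2-fold higher and 177 were 2-fold lower on siCtrl than on MEF. Together this is 10.5% of them, against 14.3% of all named genes and 3.41% of all negative-control probes. Most negative-control probes lie under the limit on both arrays and so cannot count as apart. Of the 345 above the limit on either array, 51.6% were 2-fold apart. How many unnamed sets lay above the limit is not given here. The shares therefore cannot show whether unnamed sets were apart more often than control probes of like signal.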

How the results depend on the processing

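No paired analysis was possible because each group has 1 array, and for the same reason no replicate could be left out. With the floor at each array's median, 2127 genes were higher and 2118 lower, and with a 4-fold rule 639 were higher and 579 lower, beside 1417 and 1381. Under the other 6 alternatives both counts stayed within 1.5 times those, between 1044 and 1716 higher and between 1199 and 1480 lower. The share of higher genes among those apart was 50.6%, and 58.9% with siEp300 in place of siCtrl. Of 643 named genes, 246 of them apart, the calls lost were 65 under the 4-fold rule, 29 with signals raised to the limit, 12 with siEp300 and at most 3 under any normalization alternative.

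Raising signals to the limits, which differ between the arrays, turned 8 differences by construction: Cacna2d1 became -0.012, Chrnb1 -0.18, Krt18 -0.24, Mmp13 -0.33, Msln -0.26, Popdc2 -0.27, Stat2 -0.33 and Tmod1 -0.10. It shifted the median of all named genes to -0.38. Of 18 lists with a median above 0, 14 then had one below 0, among them the thin filament (-0.24), glycolysis (-0.35), calcium handling (-0.38) and interferon (-0.38) lists. The 4 that stayed above 0 were the thick filament, Z-disc, intercalated disc and Cdk inhibitor lists.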
